A study of Homo sapiens with 2 samples.

Results

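A set of 73 genes read lower in H1299 cells given an EGR1 plasmid than in cells given the empty plasmid, after zinc-finger genes named ZNF or ZFP were left out. H1299 is a long-established cell line from a human lung carcinoma of the non-small cell kind. The cells were transiently transfected with empty pcDNA3.1 or with pcDNA-EGR1 using Lipofectamine 2000 and collected after 48 h, and total RNA (2 µg) was read on 1 Affymetrix array per group. The study looked for EGR1-regulated genes that could lessen the malignancy of such cells. The share of cells that took up a plasmid is not stated, nor whether RNA was pooled from several cultures. A lower level in some cells cannot be told apart from a smaller lowering in all of them.

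The 73 genes were chosen by the difference itself. Values are log2 RMA levels, RMA being a method that corrects background, normalizes and combines probes into 1 value per probe set. The brightest probe set stood for each gene, and 12652 genes passed a floor at the 40th percentile of mean level (5.22 on the log2 scale). A gene was taken when the EGR1 level minus the empty-vector level was -0.45 or less, which is 1.37-fold lower or more. This held for 97 genes (0.767% of those past the floor), of which 21 had a ZNF or ZFP symbol and PUS7L, CASP8 and KRT7 were left out by name. For comparison, 1.78% of genes were higher by 0.45 or more. With 1 array per group there is no replicate error and no test, and the differences of the brightest probe sets describe how the genes were chosen. Just inside the limit lay NAALADL1 (-0.4512), NOL4 (-0.4504) and PTPRZ1 (-0.4501). Just outside it lay HRK (-0.4496), LIMA1 (-0.4491) and GCM2 (-0.4489), so the limit separates genes of nearly the same value.

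EGR1 is an immediate-early transcription factor that binds short GC-rich sites in promoters. It activates many targets and can also repress when its NAB corepressors are bound. The genes found lower span many pathways, from small GTPases and the cytoskeleton to RNA processing and secretion. Of the 6 EGR1 probe sets on the array, 2 read higher in the EGR1 sample, by 3.73 and 2.76 on the log2 scale, and 4 differed by -0.39 to -0.20. The mesenchymal markers VIM, CDH2, FN1 and S100A4 were all past the floor. Of 5 simple epithelial markers EPCAM and CDH1 lay under it. The other 3 were past it and higher with EGR1, with KRT8 at 7.97 and 9.97, KRT18 at 10.70 and 12.47 and KRT19 at 5.36 and 5.61. Of the leukocyte markers PTPRC, CD14 and LYZ lay under the floor, and CD3E read 5.18 with the empty vector and 5.49 with EGR1. Past the floor were also 4 of 6 lung differentiation, 3 of 4 endothelial, 2 of 4 neuroendocrine and 1 of 5 fibroblast markers. A level past the floor therefore does not mark a cell type.

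The lowering was modest in all 73 genes. Differences ran from -0.94 to -0.45 with a median of -0.53, or 1.92-fold to 1.37-fold lower. None reached 2-fold and 19 reached 1.5-fold. Levels with the empty vector ran from 5.50 to 11.83 (median 7.01), and with EGR1 from 5.01 to 10.93 (median 6.53). Only IGLL3P, SNORA12 and SNTB1 dropped under the floor in the EGR1 array. By gene type 69 are protein-coding, 2 are snoRNAs, 1 is a lncRNA and 1 is a transcribed pseudogene. PRDM13 belongs to the PR-domain zinc-finger family, so the set is one without ZNF and ZFP symbols and not one free of zinc-finger genes.

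**Figure D1:**
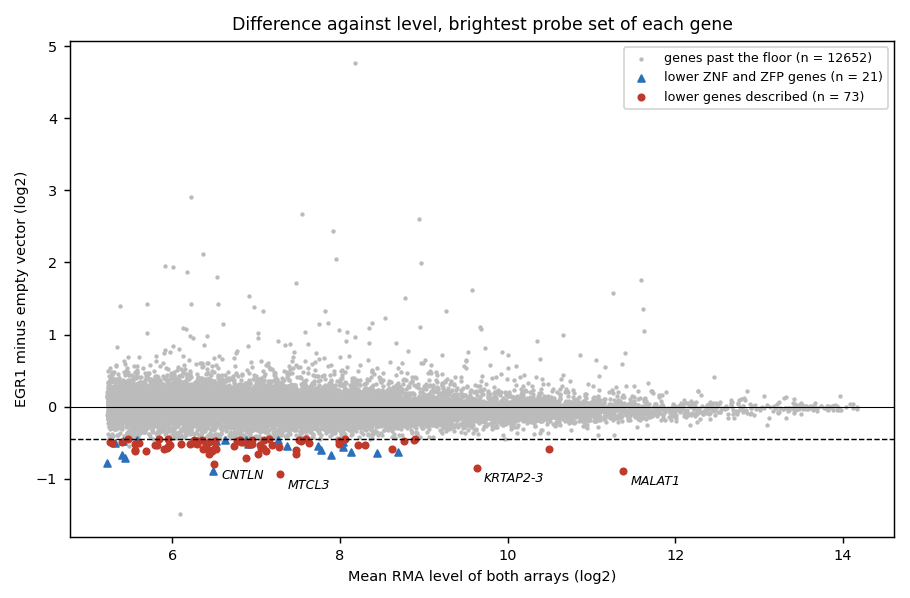
Log2 difference (EGR1 minus empty vector, vertical axis) against mean log2 level of both arrays (horizontal axis) for the brightest probe set of each of 12652 genes past the floor. The 73 genes described (red circles) and the 21 lower ZNF and ZFP genes (blue triangles) lie below the dashed line at -0.45; MTCL3, MALAT1, KRTAP2-3 and CNTLN are labelled.

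A measure the choice did not use is what the other probe sets of the same genes read, although on the same 2 arrays. Of the 73 genes, 21 had 1 probe set only, 35 had others of which none lay above 0, and 17 had at least 1 other probe set above 0 and are set apart. In 7 of those 17 the opposing probe set was itself past the floor. Among the 38 genes with a next brightest probe set past the floor, that probe set was below 0 in 30 (78.9%), against 55.6% of 7113 genes overall. It was at or below -0.45 in 6 (15.8%), against 1.95% overall. Its median was -0.21 in these genes and -0.03 overall. Probe sets of one gene can share probes, so these readings are not independent. In DIS3L, PCDHB6 and MARS2 a pair of probe sets gave an identical difference, and such a pair may not be 2 separate readings. The brightest probe set carried an _x_at or _s_at suffix in 27 of the 73 genes (37.0%), against 32.3% of all genes past the floor. These suffixes mark probes that may cross-hybridise or are shared with related transcripts. The lower ZNF and ZFP genes had closer agreement, with the next brightest probe set at or below -0.45 in 5 of 6 genes. Differences of probe sets of the same gene had a pooled SD of 0.15 over the 7113 genes.

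**Figure D2:**
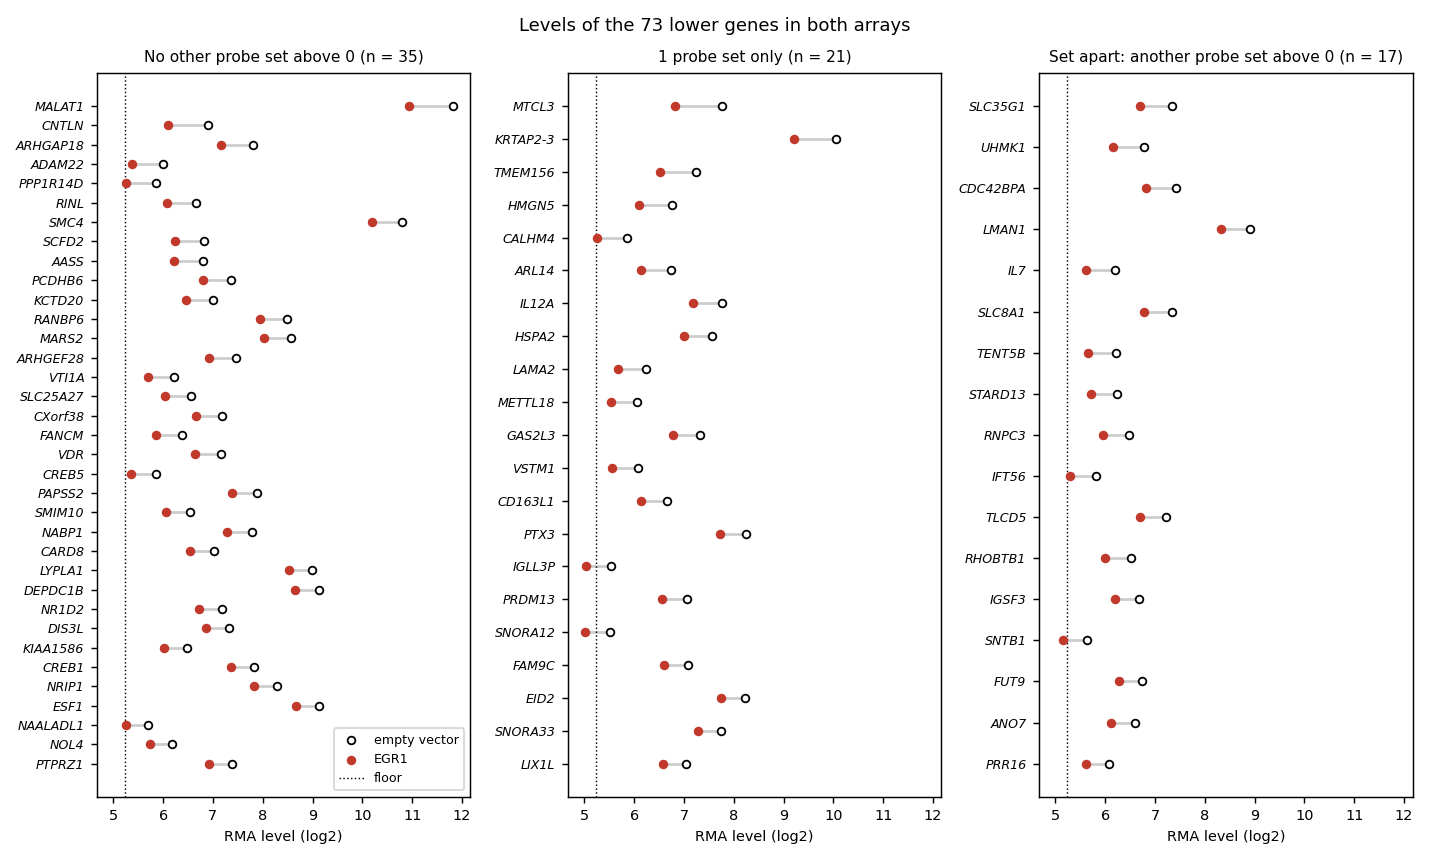
Log2 RMA level of each of the 73 genes in the empty-vector array (open circles) and the EGR1 array (filled circles), by the brightest probe set. The panels separate 35 genes with no other probe set above 0, 21 genes with 1 probe set and 17 genes set apart; the dotted line is the floor, and only SNTB1, SNORA12 and IGLL3P cross it.

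Regulators of transcription formed a small group of 8 genes, none of them set apart. Grouping by role was done after the values were seen. VDR, NR1D2 and NRIP1 belong to nuclear-receptor signalling. VDR, the vitamin D receptor, read 7.16 with the empty vector and 6.64 with EGR1, the order kept for each pair of levels from here on. Its other probe sets ran from -0.43 to 0. NR1D2, the circadian repressor REV-ERB beta, read 7.18 and 6.72, and its 3 other probe sets, 1 of them past the floor, gave -0.52 to -0.38. NRIP1, a corepressor of nuclear receptors, read 8.28 and 7.83, with -0.38 in its other probe set. RXRA and RXRB, the retinoid receptors that pair with VDR, differed by 0.07 and 0.06. CYP24A1, the classical vitamin D target, stayed under the floor in mean level (difference 0.05).

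CREB1, which activates cAMP-responsive genes, read 7.82 and 7.37. Its brightest probe set gave -0.46 and its 6 others all lay below 0, from -0.40 to -0.08. CREB5, a relative, read 5.86 and 5.35, close to the floor, and its other probe sets lay under it (-0.35 to 0). By their brightest probe sets, the rest of the family lay closer to 0. CREM, an activator or repressor of the same sites, differed by -0.04, but 2 dimmer probe sets past the floor gave -0.57 and -0.52. By the brightest probe set ATF2 differed by 0.18 and ATF7 by -0.18. Across 10 CREB and ATF genes past the floor, 2 were at or below -0.45 and the median was -0.08. HMGN5, a nucleosome-binding protein that loosens chromatin, read 6.76 and 6.10, whereas HMGN1 to HMGN4 stayed between -0.10 and 0.03. EID2, an inhibitor of differentiation, read 8.23 and 7.75. PRDM13, a neural transcription factor, read 7.06 and 6.57. HMGN5, EID2 and PRDM13 rest on 1 probe set each.

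The promoters of some of these regulators, and of MALAT1, are shown because the plasmid encodes a factor that binds GC-rich promoter sites. Only windows with a match to the EGR1 site letters are printed. RefSeq start-site windows (250 bases before to 50 after each start, build GRCh38.p14) were available for 59 of the 73 genes. Both strands were searched for the EGR1 letters GCGTGGGCG and GCGGGGGCG. They were present in 10 of 88 windows (11.4%), against 1323 of 14901 windows of all genes past the floor (8.88%). Counted by gene, 10 of 59 (16.9%) and 1235 of 10312 genes had them. Among genes higher by 0.45 or more the share was 21.6%, and the lower ZNF and ZFP genes had none in 24 windows. Both shares in the 73 genes lay above those of all genes, but they rest on 10 genes with a match and were not tested. A match is a run of letters and not evidence of binding. The other 5 genes with a match were ARHGEF28, CDC42BPA, DIS3L, PRR16 and PTPRZ1. Of the regulators not printed, CREB5, HMGN5 and PRDM13 had no match and VDR had no window. NRIP1 had a match in 1 of 3 windows, and NR1D2 and MALAT1 in 1 of 2 each. The windows printed are those of CREB1 at chr2:207529712-207530011 (plus strand), NR1D2 at chr3:23945871-23946170 (plus strand), NRIP1 at chr21:15064541-15064840 (minus strand), EID2 at chr19:39540112-39540411 (minus strand) and MALAT1 at chr11:65497488-65497787 (plus strand). Capitals mark the matched letters, read 5′ to 3′ on the gene's strand; in EID2 and MALAT1 the site lies on the opposite strand, so its reverse complement is capitalised.
CREB1: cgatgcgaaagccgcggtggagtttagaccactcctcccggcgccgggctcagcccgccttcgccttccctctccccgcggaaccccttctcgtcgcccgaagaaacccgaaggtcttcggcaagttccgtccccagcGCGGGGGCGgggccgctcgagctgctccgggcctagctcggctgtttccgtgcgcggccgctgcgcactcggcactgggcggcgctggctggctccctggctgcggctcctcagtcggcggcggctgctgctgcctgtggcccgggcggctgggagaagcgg
NR1D2: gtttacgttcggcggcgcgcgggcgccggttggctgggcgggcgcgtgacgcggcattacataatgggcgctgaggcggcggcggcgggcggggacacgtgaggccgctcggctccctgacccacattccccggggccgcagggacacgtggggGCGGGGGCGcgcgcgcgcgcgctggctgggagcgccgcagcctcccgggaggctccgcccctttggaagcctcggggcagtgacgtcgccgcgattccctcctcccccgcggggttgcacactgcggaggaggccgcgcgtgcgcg
NRIP1: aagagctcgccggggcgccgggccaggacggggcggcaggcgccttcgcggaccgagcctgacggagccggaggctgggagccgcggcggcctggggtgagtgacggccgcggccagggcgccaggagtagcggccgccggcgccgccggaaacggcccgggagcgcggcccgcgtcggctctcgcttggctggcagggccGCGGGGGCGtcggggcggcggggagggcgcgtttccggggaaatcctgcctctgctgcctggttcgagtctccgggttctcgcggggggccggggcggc
EID2: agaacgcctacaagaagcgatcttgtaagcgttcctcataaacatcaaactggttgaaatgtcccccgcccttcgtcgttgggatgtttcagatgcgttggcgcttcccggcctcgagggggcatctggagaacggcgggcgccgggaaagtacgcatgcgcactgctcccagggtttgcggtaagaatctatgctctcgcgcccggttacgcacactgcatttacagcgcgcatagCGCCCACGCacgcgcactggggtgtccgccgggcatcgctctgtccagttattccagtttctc
MALAT1: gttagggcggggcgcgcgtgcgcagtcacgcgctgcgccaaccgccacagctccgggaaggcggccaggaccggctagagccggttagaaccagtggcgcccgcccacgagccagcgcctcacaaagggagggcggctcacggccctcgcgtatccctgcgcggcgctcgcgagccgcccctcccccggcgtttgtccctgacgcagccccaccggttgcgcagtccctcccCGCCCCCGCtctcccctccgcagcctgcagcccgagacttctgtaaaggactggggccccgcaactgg
In 4 of the windows the match is GCGGGGGCG, and EID2 alone among the 59 genes with a window held GCGTGGGCG. The CREB1 window had a GC content of 73.3%, that of NRIP1 80.0% and that of EID2 58.7%.

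Promoter base composition was also compared. The GC content of each gene was averaged over its windows. Its median was 60% in the 59 genes, 59.7% in the lower ZNF and ZFP genes, 64.7% in all genes past the floor and 68.7% in genes higher by 0.45 or more. The 10312 genes past the floor with a window were split into quartiles of promoter GC. At or below -0.45 lay 1.24% of the lowest quartile and 0.362% of the highest, ZNF and ZFP genes included. The 59 of the 73 genes with a window contributed 24, 15, 12 and 8 genes from the lowest to the highest quartile. They made up 0.931% of the lowest quartile and 0.322% of the highest. Genes higher by 0.45 or more went the opposite way, from 0.931% to 2.77%. Signal on the array itself also differed with base composition. Affymetrix background probe sets with 16 to 25 G or C bases were higher in the EGR1 array in 10 of 10 cases (median 0.15, highest 0.26), and those with 3 to 15 had a median of 0. The bacterial and phage hybridisation controls were higher in 18 of 18 probe sets (median 0.14). The labelling controls dap, lys, phe and thr were higher in 24 of 24 (median 0.23, highest 0.36). The part of these differences in the lower genes was not tested. The 3′ to 5′ log2 difference of GAPDH was 0.14 and 0.13 in the 2 arrays and that of actin 1.94 and 1.93, so this sign of RNA integrity was the same in both.

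**Figure D3:**
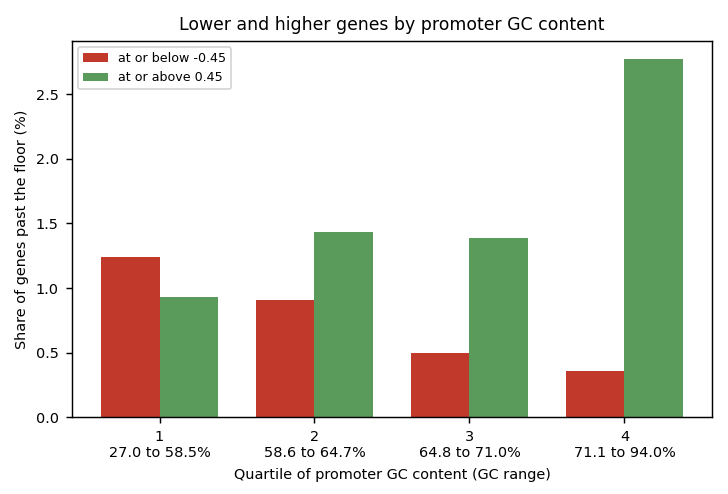
Share of genes past the floor with a promoter window (vertical axis, %) that lay at or below -0.45 (red) or at or above 0.45 (green), by quartile of promoter GC content (horizontal axis). The red bars include ZNF and ZFP genes. Lower genes became fewer from the first to the fourth quartile (1.24% to 0.362%) and higher genes more frequent (0.931% to 2.77%).

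RNA-related genes included the member with the highest level. MALAT1, an abundant lncRNA of nuclear speckles, read 11.83 and 10.93 (-0.89) by its brightest probe set. Its next brightest read 10.57 and 10.53 (-0.04) and the other gave -0.18. MALAT1 was therefore past -0.45 in 1 of 3 probe sets. Of 33 listed lncRNAs 11 were measured and 9 were past the floor. MALAT1 was the 1 at or below -0.45, and none was at or above 0.45. The median, MALAT1 included, was -0.10. The H/ACA snoRNAs SNORA33 and SNORA12, a class that guides pseudouridylation of RNA, read 7.75 and 7.28, and 5.50 and 5.01. SNORA12 lies within CWF19L1, whose 3 probe sets differed by -0.15 to -0.02. The 4 protein partners of H/ACA snoRNAs gave -0.16 to -0.10 by their brightest probe sets, and another DKC1 probe set read 8.79 and 8.33 (-0.46).

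DIS3L, the cytoplasmic exosome nuclease that degrades RNA, read 7.33 and 6.87. A second probe set gave the same difference of -0.46. Both carry the _x_at suffix, which marks probes that may cross-hybridise, and the third probe set, under the floor, gave -0.08. All 13 exosome genes lay below 0 (median -0.16), with DIS3 at -0.30 and EXOSC6 at -0.27, and DIS3L alone reached -0.45. Over all genes past the floor 52.8% lay below 0 and the median was -0.02. ESF1, a nucleolar factor of ribosomal RNA processing, read 9.13 and 8.67, and its 2 other probe sets gave -0.36 and -0.30. MARS2, the mitochondrial methionyl-tRNA synthetase, read 8.56 and 8.03 with the identical difference of -0.30184 in both others. METTL18, which methylates a histidine of a ribosomal protein, read 6.06 and 5.52 by 1 probe set. The importin-like RANBP6 read 8.48 and 7.94, with -0.22 in its other probe set. LIX1L read 7.04 and 6.58 by 1 probe set.

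Other RNA-related genes had opposing probe sets. RNPC3, a protein of the minor spliceosome that removes the rare class of introns, read 6.47 and 5.95, but its others gave -0.17 and 0.07. Of 8 minor-spliceosome proteins it alone reached -0.45 (median -0.06). UHMK1, a kinase of splicing factors, read 6.78 and 6.16 and gave 0.03 in a probe set under the floor. TENT5B, a poly(A) polymerase, read 6.22 and 5.65 and gave 0.07 in one past it.

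Genes of chromosome structure and repair numbered 3. SMC4, the ATPase core of condensin, which compacts mitotic chromosomes, read 10.79 and 10.20. The other 3 SMC4 probe sets were similarly bright and gave -0.70, -0.23 and -0.18, so 2 of 4 were past -0.45. The 8 condensin genes were all below 0 with a median of -0.16, NCAPD3 at -0.27 and NCAPH at -0.23. SMC2, which pairs with SMC4, was -0.12 by its brightest probe set and read 8.55 and 7.86 (-0.69) by another. NABP1, a single-strand DNA-binding protein of the SOSS repair complex, read 7.77 and 7.29. Its 4 other probe sets were all lower, from -0.66 to -0.22. Its paralog NABP2 differed by -0.02 and the complex partners INTS3 and INIP by 0.04 and 0.16. FANCM, the translocase that recruits the Fanconi anaemia machinery to stalled forks, read 6.37 and 5.85, with -0.34 and -0.03 in probe sets under the floor. Of 56 listed repair genes past the floor 48 were below 0 (median -0.13), and FANCM was the 1 at or below -0.45.

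Genes of the cytoskeleton and of small GTPases numbered 15 in this grouping. MTCL3, of a family of microtubule-crosslinking proteins, had the largest difference of the 73 genes. It read 7.76 and 6.82 (-0.94) by its single probe set, while MTCL1 differed by -0.15 and MTCL2 by 0.10. CNTLN, a centriolar linker protein, read 6.90 and 6.10 (-0.80). Its 3 other probe sets lay under the floor and gave -0.29 to -0.02. Among 49 listed centrosome genes past the floor CNTLN was the 1 at or below -0.45, and 34 lay below 0 (median -0.09). Among 45 listed microtubule-binding genes, a list without GAS2L3, MTCL3 was the 1 (median -0.04). GAS2L3, which links actin and microtubules during cell division, read 7.31 and 6.77 by 1 probe set.

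Several of these members regulate or resemble small GTPases, the molecular switches of the cytoskeleton. ARHGAP18, a GTPase-activating protein, read 7.81 and 7.15 by its brightest probe set. Its others, also past the floor, gave -0.520 and -0.448, the last just outside the limit. ARHGEF28, a guanine-nucleotide exchange factor, read 7.46 and 6.93, and its 4 others gave -0.42 to -0.28. DEPDC1B, which is linked to mitotic de-adhesion, read 9.12 and 8.65, with -0.39 and -0.22 in its others. CDC42BPA, a kinase downstream of CDC42, read 7.43 and 6.82, but its next brightest probe set gave 0.09. STARD13, a GTPase-activating protein, read 6.24 and 5.71 and had one opposing probe set under the floor (0.18). RHOBTB1, an atypical GTPase, read 6.51 with the empty vector (-0.51), and its other probe sets, under the floor, ran from -0.54 to 0.45.

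The remaining genes of this group were mostly dim or had 1 probe set. ARL14, a small GTPase of the ARF family, read 6.74 and 6.14. RINL, a Ras and Rab interactor, read 6.67 and 6.08 with -0.06 in its other probe set. PPP1R14D, an inhibitor of protein phosphatase 1, read 5.86 and 5.25 with -0.32 in a probe set under the floor. KRTAP2-3, a keratin-associated protein gene of hair, was among the brightest at 10.05 and 9.21 (-0.85) by a probe set whose _s_at suffix marks probes shared with related transcripts. Of 10 listed hair keratin genes past the floor it alone reached -0.45, and 8 lay above 0. IFT56, of ciliary transport, read 5.81 and 5.29, and its other probe sets, all under the floor, ran from -0.34 to 0.39. SNTB1, a dystrophin-binding syntrophin, read 5.64 and 5.15 and gave 0.21 in its next brightest probe set.

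**Figure D4:**
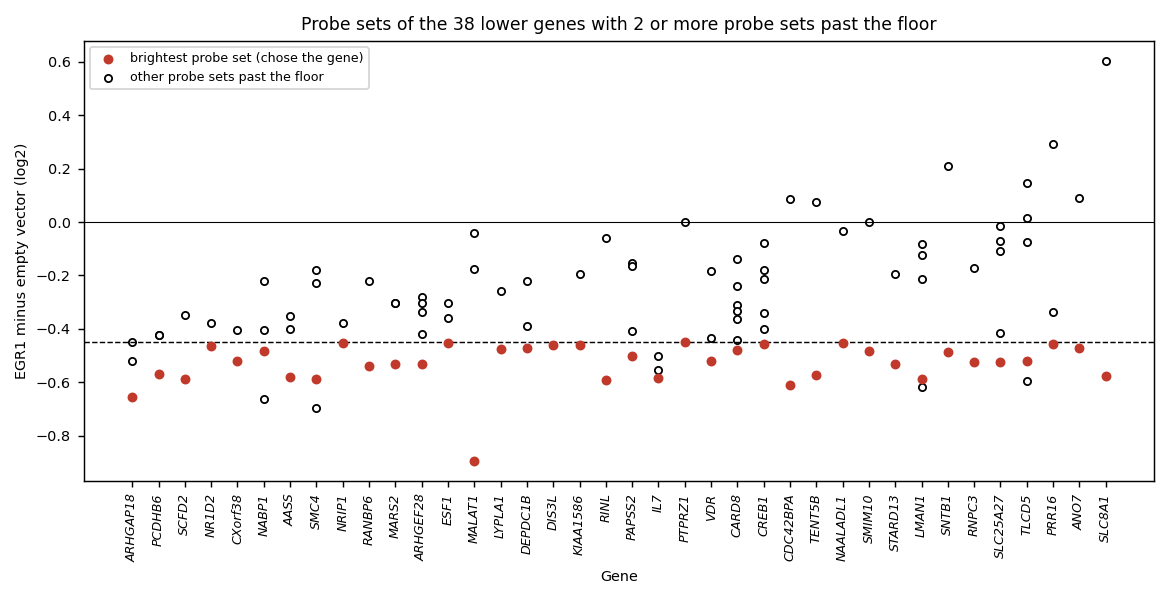
Log2 difference (EGR1 minus empty vector) of every probe set past the floor for the 38 of the 73 genes that had 2 or more, ordered by the mean over all probe sets of the gene. Filled circles are the brightest probe sets that chose the genes and open circles the others; the ARHGAP18 values are -0.656, -0.520 and -0.448, and in SLC8A1 the other lies at 0.60.

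Genes of the secretory pathway and metabolism numbered 10. LMAN1, the cargo receptor that carries glycoproteins from the endoplasmic reticulum to the Golgi, read 8.92 and 8.33. Its next brightest probe set gave -0.62, the other 3 past the floor gave -0.21 to -0.08, and one under the floor gave 0.29. MCFD2, its partner, differed by -0.07, and the other cargo receptors stayed between -0.14 and 0.06. SCFD2, a Sec1-family protein, read 6.82 and 6.23, with -0.35 in its other probe set. VTI1A, a SNARE of Golgi transport, read 6.22 and 5.69, with -0.22 and -0.11 under the floor. LYPLA1, a thioesterase that removes palmitate from proteins, read 8.52 with EGR1 (-0.47), with -0.26 in its other probe set. None of 68 listed Golgi and vesicle genes past the floor reached -0.45 (median -0.06).

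AASS, which begins lysine breakdown in mitochondria, read 6.80 and 6.22, and its 3 others gave -0.40 to -0.35. PAPSS2, one of the enzymes that make the sulfate donor PAPS, read 7.88 and 7.38 with -0.41 to -0.15 in its others. Its paralog PAPSS1 differed by -0.01. SLC35G1, a membrane protein of the SLC35 transporter superfamily, read 7.35 and 6.69, but its other probe set, under the floor, gave 0.04. In that family 1 of 25 genes past the floor was at or below -0.45 and 1 at or above 0.45. TLCD5 read 7.21 and 6.70 with others from -0.59 to 0.15. FUT9, a fucosyltransferase that makes the Lewis X antigen, read 6.75 and 6.27 and gave 0.04 and 0.07 in probe sets under the floor. NAALADL1, a peptidase, read 5.70 and 5.25 with -0.03 in its other. In this group the other probe sets of AASS, PAPSS2, SCFD2, LYPLA1, VTI1A and NAALADL1 were all below 0. SLC35G1, LMAN1, TLCD5 and FUT9 are set apart.

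Immune and secreted proteins included a pair of interleukins. IL12A, the p35 subunit shared by interleukin-12 and interleukin-35, read 7.77 and 7.17 by 1 probe set. IL7, a growth factor of lymphocytes, read 6.19 and 5.61. Its 2 other probe sets past the floor gave -0.55 and -0.50, and one under it gave 0.25. These were the 2 of 25 listed cytokine and receptor genes past the floor at or below -0.45, and the list median was -0.03. PTX3, a soluble pattern-recognition pentraxin, read 8.24 and 7.73. CARD8, a sensor protein of inflammasomes, read 7.01 and 6.53, and all 9 of its other probe sets lay below 0, from -0.44 to -0.02. Of these, 1 tied with the chosen probe set in mean level and gave -0.443, outside the limit. Had the tie gone the other way, CARD8 would not have been taken. VSTM1, CD163L1 and the pseudogene IGLL3P had 1 probe set each and read 6.08 and 5.55, 6.66 and 6.14, and 5.54 and 5.03. Besides CARD8 and IL7, this group rests on single probe sets.

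Cell-surface, matrix and ion-transport genes numbered 9. PCDHB6, a clustered protocadherin, read 7.36 and 6.79, and both its others gave the identical difference of -0.42209. Protocadherin genes of this cluster share sequence, and 13 of the 16 lay under the floor. LAMA2, a laminin chain of muscle basement membrane, read 6.23 and 5.67 by 1 probe set. PTPRZ1, a receptor tyrosine phosphatase, read 7.37 and 6.92, with others at -0.41 and 0. ADAM22, a catalytically inactive adhesion protein, read 5.99 and 5.38 with -0.20 to -0.07 in probe sets under the floor. IGSF3 read 6.69 and 6.19 with 0.26 and -0.24 in probe sets under the floor. SLC8A1, the sodium-calcium exchanger, read 7.34 and 6.77, but its other probe set gave 0.60, so the mean over both was 0.01. CALHM4 read 5.86 and 5.25, SLC25A27 6.56 and 6.04, and ANO7 6.59 and 6.12. ANO7 gave 0.09 and 0.08 in its others, and SLC25A27 ran from -0.41 to -0.01.

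The last 9 genes have varied or poorly known roles. HSPA2, an HSP70 chaperone of the testis, read 7.56 and 6.99 by 1 probe set, while HSPA5 and HSPA8 differed by 0.22 and -0.02. TMEM156, a membrane protein, read 7.24 and 6.53 (-0.71) by 1 probe set. CXorf38 read 7.18 and 6.66 with -0.40 in its other, and KCTD20 7.01 and 6.45 with -0.55 and -0.08 under the floor. KIAA1586 read 6.48 and 6.02, NOL4 6.18 and 5.73, and SMIM10 6.53 and 6.05 with 0 in its other. FAM9C read 7.09 with the empty vector (-0.49). PRR16 read 6.07 and 5.62 with others at -0.34 and 0.29.

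Several members neighbour each other in the RefSeq gene table. With at most 2 other genes past the floor between successive members, 8 of the 73 fell into 3 runs. On chromosome 6, MTCL3, LAMA2 and ARHGAP18 lay in a row with 1 gene between, PTPRK, which differed by -0.04. No gene past the floor lay between LAMA2 and ARHGAP18. Of the 20 nearest genes past the floor (10 on each side), 17 lay below 0, with a median of -0.12 and a lowest value of -0.33. On chromosome 3, IL12A, SMC4 and ARL14 lay among IFT80 (-0.23), TRIM59 (-0.22) and KPNA4 (0.10). PTX3 lay further along on one side of this run, and the median of the 20 flanking genes, PTX3 included, was -0.03. On chromosome 7, PTPRZ1 and AASS had none between them, with a flanking median of -0.02. The 4 genes between members lay between -0.23 and 0.10, and in none of the 3 runs were the flanking genes at or below -0.45 apart from PTX3. How often such runs arise among genes in general was not tested.

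**Figure D5:**
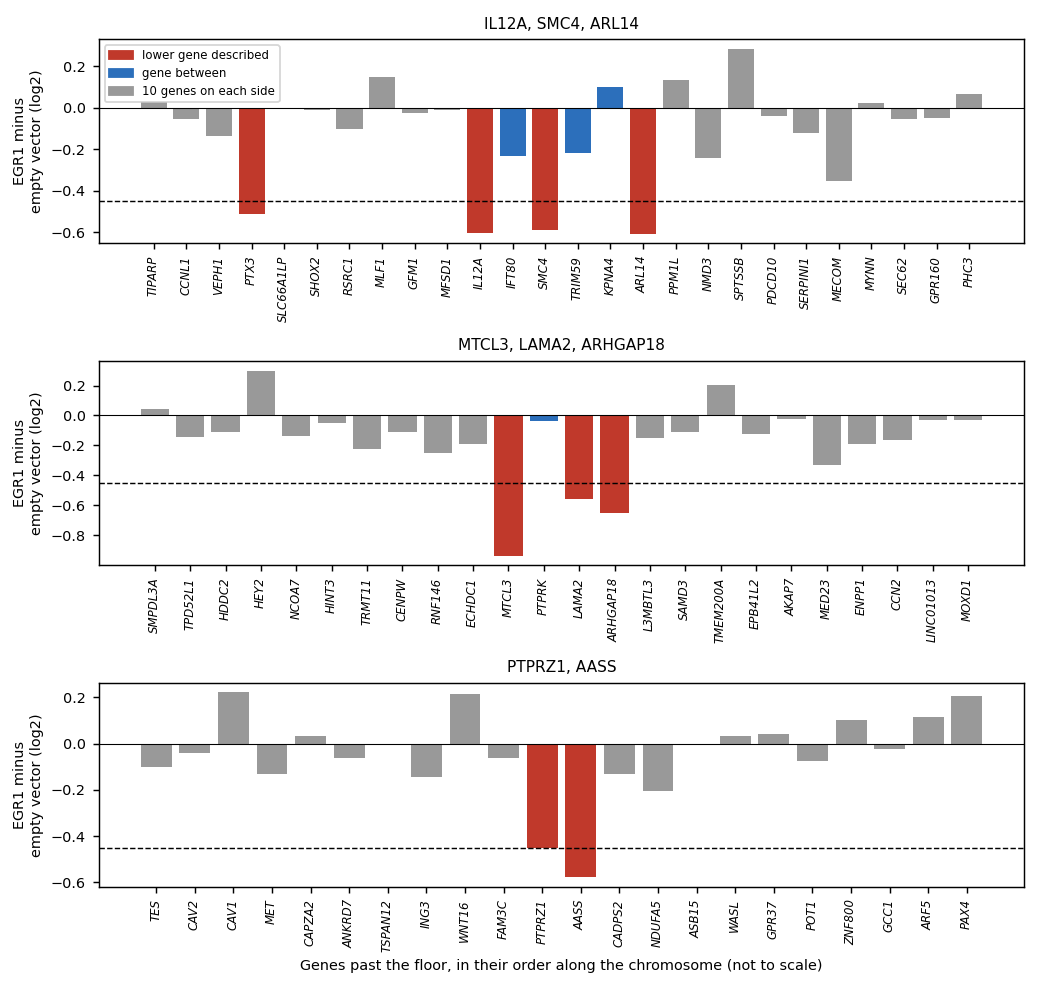
Log2 difference (EGR1 minus empty vector, bars) of genes past the floor in their order along the chromosome for 3 runs of neighbouring members, with 10 genes on each side. Members are red (PTX3 in the top panel included), genes between them blue and flanking genes grey; the dashed line is -0.45. PTPRK between MTCL3 and LAMA2 lies at -0.04.

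The functional lists were drawn up with earlier results of these data known, and some hold relatives of single members. Counts in them are a description and not an independent check. The 73 genes fell in several lists. Of 970 listed genes past the floor 9 were at or below -0.45 (0.928%), near the 0.767% of all genes. Of 21 functional lists, 8 held at least 1 gene at or below -0.45, and the list of cytokines and their receptors held 2. Over all genes past the floor 52.8% lay below 0, with a median of -0.02 and quartiles at -0.12 and 0.10. Several lists had a larger share below 0 without any gene at or below -0.45. What these shares reflect was not tested. Of 50 mitochondrial gene-expression genes past the floor 46 were below 0 (median -0.12, lowest -0.35). The figures were 34 of 40 for helicases (median -0.10), 62 of 82 for ubiquitin ligases and deubiquitinases (median -0.11) and 40 of 55 for tRNA and rRNA modification (median -0.08). Chromatin modifiers (median 0.01) and Wnt and Hippo genes (median 0.06) did not lean lower. PRDM13 was not in the list of C2H2 zinc-finger factors without a ZNF or ZFP symbol. Of the 81 listed ones past the floor none was at or below -0.45, with a median of -0.04 and a lowest value of -0.37.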

How the data were processed

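The 2 samples, 1 array each, were compared. Per the submitters' processing notes the authors made the deposited log2 values with RMA; the sources used here give no software, version, settings or genome build. Of 49395 probe sets, 44988 carried 1 gene symbol in the platform annotation and 44961 of these matched RefSeq's gene table (GRCh38.p14) by gene ID. Python 3.11.15 with pandas 2.3.3 and statsmodels 0.14.6 took the brightest probe set of each of 18132 genes, applied the floor and the -0.45 limit, and subtracted levels without further normalization. RMA gives no detection call, and levels of different genes were not compared as amounts of RNA. The rule was run on simulated data with less noise than the spread between probe sets and with differences larger than the limit. That run checked the code and gives no error rate for these arrays. With 1 array per group no test was run, and the number of arrays limits the precision. The genes and lists were chosen with earlier results of these data known. The rule for named genes took the 15 lowest, the 10 lowest by mean over agreeing probe sets, those set apart, those at the limit, listed genes and neighbours; other members, roles and relatives were added after seeing values. Protein features were planned but not analysed here. Alternatives covered the probe set, normalization, floor and limit.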

Additional observations from a re-analysis of the deposited data

How the results depend on the processing

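No paired analysis was possible because each group holds 1 array. The number of genes found, 73 as reported, was within 1.5 times that under 7 of 13 alternatives. It was 132 with the next brightest probe set (6 of them among the 73), 47 with a floor at the 60th percentile, 126 with no floor, 145 at -0.40, 48 at -0.50 and 19 at 1.5-fold. The mean of all probe sets gave 52 genes, 26 of them shared, and leaving out _x_at and _s_at probe sets gave 96, 48 of them shared. Lowess and quantile normalization shared 62 and 61. The share of genes called was 1.06% without _x_at and _s_at probe sets, 1.95% with the next brightest, 1.42% at -0.40, 0.514% at -0.50 and 0.229% at 1.5-fold, against 0.767%. Genes with another probe set past the floor below 0 numbered 31, and 49, 15 and 61 with the floor at the 20th percentile, at the 60th percentile and absent.

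A difference counted as moved when it changed by more than the pooled SD of 0.15 without turning direction. With the next brightest probe set 29 of 52 genes moved, 11 turned and 12 stayed the same. With the mean of all probe sets 36 of 73 moved, 1 turned and 36 stayed the same. Leaving out _x_at and _s_at probe sets moved 9 of 67, and lowess and quantile normalization moved none. Directions turned in these cases. With the next brightest probe set they were SLC35G1 (0.045), UHMK1 (0.029), CDC42BPA (0.085), SLC8A1 (0.60), TENT5B (0.074), IFT56 (0.0404), IGSF3 (0.26), SNTB1 (0.21), FUT9 (0.037), ANO7 (0.091) and PRR16 (0.29). Without _x_at and _s_at probe sets they were SLC35G1 (0.045), IGSF3 (0.26), SNTB1 (0.21), ANO7 (0.091) and PRR16 (0.29). In SLC35G1, UHMK1, IFT56, IGSF3 and FUT9 the probe set that turned the direction lay under the floor. The mean of all probe sets turned SLC8A1 (0.015), and quantile normalization turned PRR16 (0.27) because another probe set became its brightest. All of these genes are among the 17 set apart. Lowess correction turned none of the 73. Without replicates the error between cultures is unknown.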

Other observations

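Many genes outside the 73 had a lower probe set that was not their brightest. Past the floor, 318 such probe sets of 264 genes without a ZNF or ZFP symbol lay at or below -0.45, and 9 of them were 2-fold lower or more. They were chosen here after their values were seen. PRKDC, the catalytic subunit of the DNA-dependent kinase of end joining, read 7.77 and 6.20 by 1 such probe set (-1.57), whereas its brightest probe set gave -0.15. TOP1, topoisomerase I, gave -1.33 against -0.10, BAZ1B, a chromatin-remodelling protein, -1.30 against -0.01, and CDC27, a subunit of the anaphase-promoting complex, -1.15 against -0.03. KNL1, a kinetochore scaffold, gave -1.09 against -0.15, and XRN2, a nuclear exonuclease, -1.02 against -0.24. CENPF, SON and DEK, whose brightest probe sets gave -0.17, -0.11 and -0.15, also held 1 probe set just past 2-fold. Over all probe sets past the floor that were not the brightest of their gene, 2.34% were at or below -0.45 and 1.43% at or above 0.45. For brightest probe sets the shares were 0.767% and 1.78%. Where these probe sets lie in the transcripts was not established, and the cause of the difference was not tested.

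Probe sets without exactly 1 gene symbol were lower by 0.45 or more in 36 of 2451 cases past the floor (1.47%).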
